A study of Mus musculus with 27 samples.

Results

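Transforming growth factor beta (TGF-beta) signalling was examined in the liver of 2-week-old mouse pups through 9 genes: the ligands Tgfb1 and Tgfb2, the receptor subunits Tgfbr1 and Tgfbr2, the signal carriers Smad2, Smad3 and Smad4, and the corepressors Ski and Skil. They were chosen by their role in the pathway around Smad3, a gene that the study selected on its signal in these same pups. The probe set of a gene was chosen by its mean signal, as the highest over all 27 arrays among those that name the gene alone. Of the 9 genes, 8 had such a probe set, each of them just 1, among 18820 genes of the array. The remaining gene, Tgfbr2, shares its probe set with Mib1, and no value is assigned to it.

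TGF-beta ligands bind a type II receptor (Tgfbr2), which then activates a type I receptor (Tgfbr1). The type I receptor phosphorylates Smad2 and Smad3, which join Smad4 and act on target genes in the nucleus, while Ski and Skil bind these complexes and repress transcription. In liver the pathway is known for restraining hepatocyte proliferation and for driving stellate cells to deposit matrix.

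The 27 arrays held liver RNA of 27 C57BL/6J pups, 1 pup per array: 6 males and 6 females of dams on a Western-style diet (WSD), and 6 males and 9 females of dams on a low fat diet (LFD). Fat supplied 45% of the energy of the WSD and 10% of that of the LFD, and each kg held 196.5 mg of cholesterol in the WSD and 18.0 mg in the LFD. Dams received their diet for 6 weeks before mating to males kept on control diet, and then through pregnancy and lactation, so that no pup had been weaned. Signals are log2 intensities from robust multi-array averaging (RMA), and a difference of 1 is a doubling. Pups are named by sex, maternal diet and number, so that m-WS1 is the first male of the WSD group and f-LF9 the ninth female of the LFD group.

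The median signal of an array lay between 5.34 and 5.43. Xist, transcribed from the inactive X chromosome, was at 7.92 in m-WS1 and at 9.30 in m-LF6, whereas the other males lay between 3.25 and 4.50 and all females at 11.67 or above. The pups m-WS1 and m-LF6 therefore go in part against their label as males, and the differences by diet in males are also given without both. The names of the arrays include a number of unstated meaning, which is 39, 40 or 48 for WSD pups and 37, 49 or 50 for LFD pups. Each number lies within 1 maternal diet and may mark dams or litters, so effects of number and diet cannot be told apart. The p-values take pups as independent and then measure only the spread between pups. A gene is called at a p of at most 0.01, the threshold of the study, in a limma model of the 4 groups over 13279 genes. The p that is printed is the one adjusted over these genes, so that a called gene can have an adjusted p well above 0.05. All 8 measured members passed the intensity filter.

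Smad3 and Ski had the highest and the lowest difference by maternal diet in males among the measured members, and the 250 bases before their annotated start are therefore shown. They are from RefSeq (GRCm38.p6, both on the minus strand), at chr9:63757995-63758244 for Smad3 and at chr4:155222536-155222785 for Ski. Capitals mark GGGCGG or its complement CCGCCC, the box bound by Sp1-type factors, and no marked matches overlap.
Smad3: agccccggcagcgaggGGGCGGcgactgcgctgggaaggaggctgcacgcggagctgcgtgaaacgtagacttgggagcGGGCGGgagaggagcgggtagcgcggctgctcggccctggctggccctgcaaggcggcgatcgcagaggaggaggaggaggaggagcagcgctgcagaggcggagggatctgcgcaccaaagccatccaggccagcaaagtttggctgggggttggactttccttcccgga
Ski: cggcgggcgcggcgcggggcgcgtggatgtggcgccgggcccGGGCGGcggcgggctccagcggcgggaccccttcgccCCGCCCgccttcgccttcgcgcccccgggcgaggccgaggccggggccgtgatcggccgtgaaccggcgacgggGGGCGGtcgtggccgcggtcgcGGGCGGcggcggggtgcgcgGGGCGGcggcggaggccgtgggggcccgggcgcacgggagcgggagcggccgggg
The Smad3 window held 2 such boxes at 69.2% G and C, and the Ski window 5 at 87.6%. The box was present in 32.7% of 32851 promoter windows of the same length. The letters CAGAC, which form the core of a Smad binding element, were in neither window on either strand, and were in 42.2% of all windows. A match describes the letters only.

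Smad3, the receptor-activated Smad that binds DNA directly, had a higher signal in WSD than in LFD males, with no difference detectable in females. In WSD males the signal of Smad3 was 7.90 at the lowest, 7.95 at the median and 7.99 at the highest. In LFD males it was 7.45 at the lowest, 7.66 at the median and 7.81 at the highest. Every WSD male lay above every LFD male, and the nearest LFD male was m-LF6. Groups of males did not overlap for 159 of the 13279 genes (1.20%). The mean of Smad3 was 7.94 ± 0.037 in WSD males and 7.65 ± 0.12 in LFD males (SD, n = 6 each), a log2 difference of 0.29 (SE 0.063, 95% interval 0.16 to 0.42), or 1.22-fold. As the study chose Smad3 for its values in these males, the difference is a description and has no test. Without m-WS1 and m-LF6 it was 0.33.

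**Figure D1:**
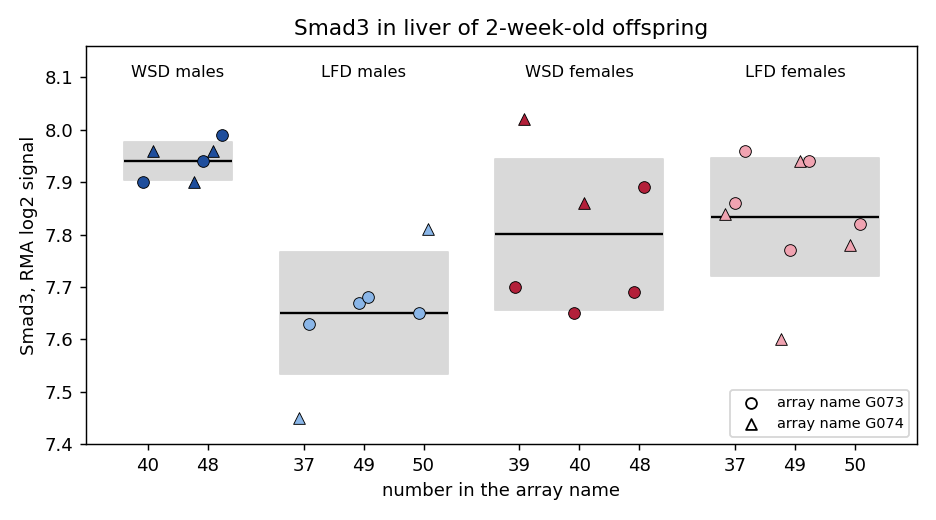
Smad3 signal (RMA log2, vertical axis) in each of the 27 pups, by group and by the number in the array name (horizontal axis); circles and triangles are the array name prefixes G073 and G074, lines are group means and grey bands 1 SD to either side. All 6 WSD males lie at 7.90 or above and all 6 LFD males at 7.81 or below, whereas WSD and LFD females share their range.

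The difference in males was present for each part of the array names. The 2 WSD males of number 40 averaged 7.93 and the 4 of number 48 averaged 7.95. Among LFD males, the averages were 7.54 for number 37, 7.68 for number 49 and 7.73 for number 50, with 2 pups each. Both WSD numbers thus lay above the 3 LFD numbers. With the number as a random block, the Smad3 difference in males was 0.29 with an SE of 0.069. Within the prefix G073 it was 0.28, and within G074 it was 0.30.

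In WSD females Smad3 was 7.65 at the lowest, 7.78 at the median and 8.02 at the highest. In LFD females it was 7.60 at the lowest, 7.84 at the median and 7.96 at the highest. The groups overlapped over most of their range. The mean was 7.80 ± 0.14 in WSD females (SD, n = 6) and 7.83 ± 0.11 in LFD females (SD, n = 9), a difference of -0.03 (SE 0.057, 95% interval -0.15 to 0.084, adjusted p = 0.845). By prefix, the 2 WSD females of G074 averaged 7.94 against 7.79 in 4 LFD females, and the 4 WSD females of G073 averaged 7.73 against 7.87 in 5 LFD females. The difference by diet in males minus that in females was 0.32 (SE 0.085, 95% interval 0.15 to 0.50), again given as a description, and it was 0.37 without m-WS1 and m-LF6.

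Between the sexes, Smad3 stood in opposite order on the 2 diets. On WSD the means of 7.94 in males and 7.80 in females differed by 0.14 (SE 0.063, 95% interval 0.011 to 0.27). On LFD the means of 7.65 in males and 7.83 in females differed by -0.18 (SE 0.057, 95% interval -0.30 to -0.066). Without m-WS1 and m-LF6 these differences were 0.15 on WSD and -0.22 on LFD. Neither difference has a test, since the male values selected Smad3. The order of the group means from high to low was WSD males, LFD females, WSD females and LFD males. The neighbours LFD females and WSD females differed by less than the SD of either group.

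The other 7 measured members showed no such separation. In males 0 of the 7 were called by limma, with 1 (Ski) at an unadjusted p under 0.05, where 5.14% of all genes were called (2.79% higher and 2.34% lower on WSD). In females 0 of all 8 were called, with 0 at an unadjusted p under 0.05, where 5.14% of all genes were called (3.66% higher and 1.48% lower). For the difference between the sexes in the response to diet, 0 of the 7 were called, with 0 at an unadjusted p under 0.05, where 2.45% of all genes were called. Between males and females on WSD, 0 of the 7 were called and 1 (Ski) had an unadjusted p under 0.05, where 3.25% of all genes were called. On LFD 0 of 7 were called and 0 had an unadjusted p under 0.05, where 1.34% of all genes were called. With so few members, a count of 0 lies close to these background shares. No other member had groups that did not overlap, in males or in females, where 0.414% of all genes had this in females.

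**Figure D2:**
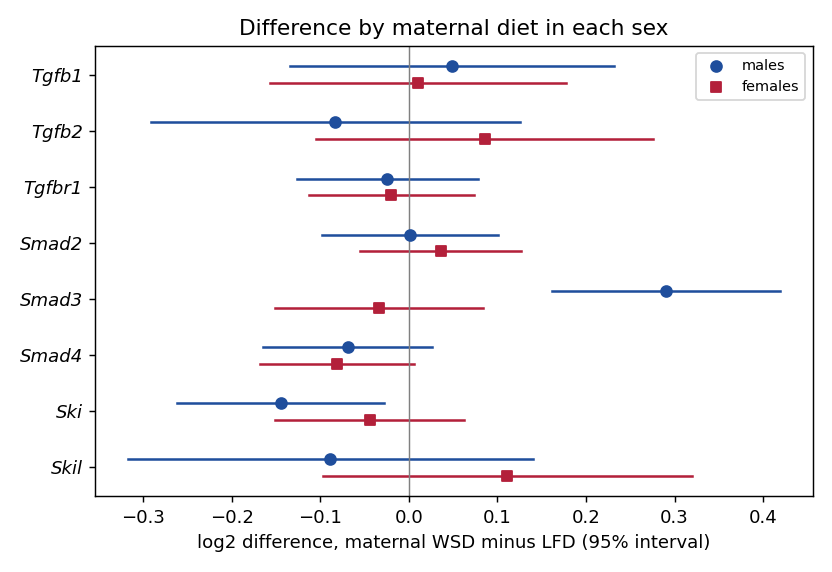
Log2 difference between WSD and LFD pups (horizontal axis) with its 95% interval for each measured member (vertical axis), males as circles and females as squares. Smad3 in males is at 0.29 and is shown as a description without a test, since the study chose it on these males. Of the other intervals, only that of Ski in males, at -0.14, does not hold 0.

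Tgfb1, the main ligand of the pathway, had a signal of 8.38 at the lowest, 8.57 at the median and 8.71 at the highest in WSD males. In LFD males it was 8.30 at the lowest, 8.56 at the median and 8.76 at the highest. The difference was 0.049 in males (SE 0.089, 95% interval -0.13 to 0.23, adjusted p = 0.875) and 0.010 in females (SE 0.082, 95% interval -0.16 to 0.18, adjusted p = 0.975). Tgfb1 ran from 8.44 to 8.68 in WSD females and from 8.29 to 8.85 in LFD females, so that the WSD females lay inside the LFD range.

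Tgfb2, a second ligand, had the lowest signal of the 8 probe sets, and signals of different probe sets cannot be set against each other as amounts. It was 5.40 at the lowest, 5.45 at the median and 5.59 at the highest in WSD males, against 5.37, 5.50 and 5.83 in LFD males. The difference was -0.083 in males (SE 0.10, 95% interval -0.29 to 0.13, adjusted p = 0.793) and 0.085 in females (SE 0.093, 95% interval -0.10 to 0.28, adjusted p = 0.734). Tgfb2 spread most in WSD females, between 5.25 in f-WS2 and 6.04 in f-WS1, and the LFD females lay between 5.20 and 5.72.

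Tgfbr1, the kinase that phosphorylates Smad2 and Smad3, was 7.48 at the lowest, 7.62 at the median and 7.73 at the highest in WSD males. In LFD males it was 7.57 at the lowest, 7.63 at the median and 7.70 at the highest, inside the range of the WSD males. The differences were -0.025 in males (SE 0.050, 95% interval -0.13 to 0.077, adjusted p = 0.891) and -0.020 in females (SE 0.045, 95% interval -0.11 to 0.073, adjusted p = 0.89). The probe set that Tgfbr2 shares with Mib1 averaged 8.07 in WSD males, 8.07 in LFD males, 8.08 in WSD females and 8.16 in LFD females, and these values cannot be assigned to either gene.

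Smad2, the close relative of Smad3 that is phosphorylated by the same receptor, did not show the difference seen for Smad3. It was 7.41 at the lowest, 7.44 at the median and 7.68 at the highest in WSD males, and 7.38, 7.47 and 7.55 in LFD males. The difference was 0.00086 in males (SE 0.049, 95% interval -0.099 to 0.10, adjusted p = 0.997) and 0.036 in females (SE 0.044, 95% interval -0.055 to 0.13, adjusted p = 0.77). Smad2 and Smad3 were not tested against each other, since the male values had selected Smad3.

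Smad4, the shared partner of the receptor-activated Smads, had a negative difference in both sexes and was called in neither. It was 8.76 at the lowest, 8.90 at the median and 8.94 at the highest in WSD males, and 8.87, 8.95 and 9.03 in LFD males. In WSD females it was 8.77 at the lowest, 8.82 at the median and 8.89 at the highest, and in LFD females 8.79, 8.89 and 9.15. The difference was -0.069 in males (SE 0.046, 95% interval -0.16 to 0.026, adjusted p = 0.561) and -0.081 in females (SE 0.042, 95% interval -0.17 to 0.0053, adjusted p = 0.384). The groups overlapped in both sexes.

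Ski, a corepressor that binds Smad complexes on DNA, was 8.20 at the lowest, 8.33 at the median and 8.39 at the highest in WSD males. In LFD males it was 8.31 at the lowest, 8.40 at the median and 8.69 at the highest. The lowest LFD male, m-LF6, lay among the WSD males, and m-LF2, m-LF4 and m-LF5 stood above all WSD males. The difference was -0.14 (SE 0.057, 95% interval -0.26 to -0.028, adjusted p = 0.239), short of p 0.01. Without m-LF6 it was -0.18 and without both m-LF6 and m-WS1 it was -0.17, and in both cases it passed p 0.01. In females Ski ran from 8.31 to 8.56 on WSD and from 8.37 to 8.60 on LFD, a difference of -0.044 (SE 0.052, 95% interval -0.15 to 0.063, adjusted p = 0.756). The difference between the sexes in the response of Ski to diet was -0.10 (SE 0.077, adjusted p = 0.7).

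Skil, the relative of Ski that is itself a target of TGF-beta signalling, was 7.11 at the lowest, 7.41 at the median and 7.59 at the highest in WSD males, and 7.09, 7.53 and 7.71 in LFD males. In WSD females it was 7.33 at the lowest, 7.57 at the median and 7.68 at the highest, and in LFD females 7.12, 7.33 and 7.74. The difference was -0.089 in males (SE 0.11, 95% interval -0.32 to 0.14, adjusted p = 0.801) and 0.11 in females (SE 0.10, 95% interval -0.097 to 0.32, adjusted p = 0.678). The range of Skil in WSD males lay inside that in LFD males. When m-WS1 and m-LF6 were left out, the differences in males were 0.029 for Tgfb1, -0.091 for Tgfb2, 0.0025 for Tgfbr1, -0.043 for Smad2, -0.072 for Smad4 and -0.073 for Skil, and none of these was called.

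**Figure D3:**
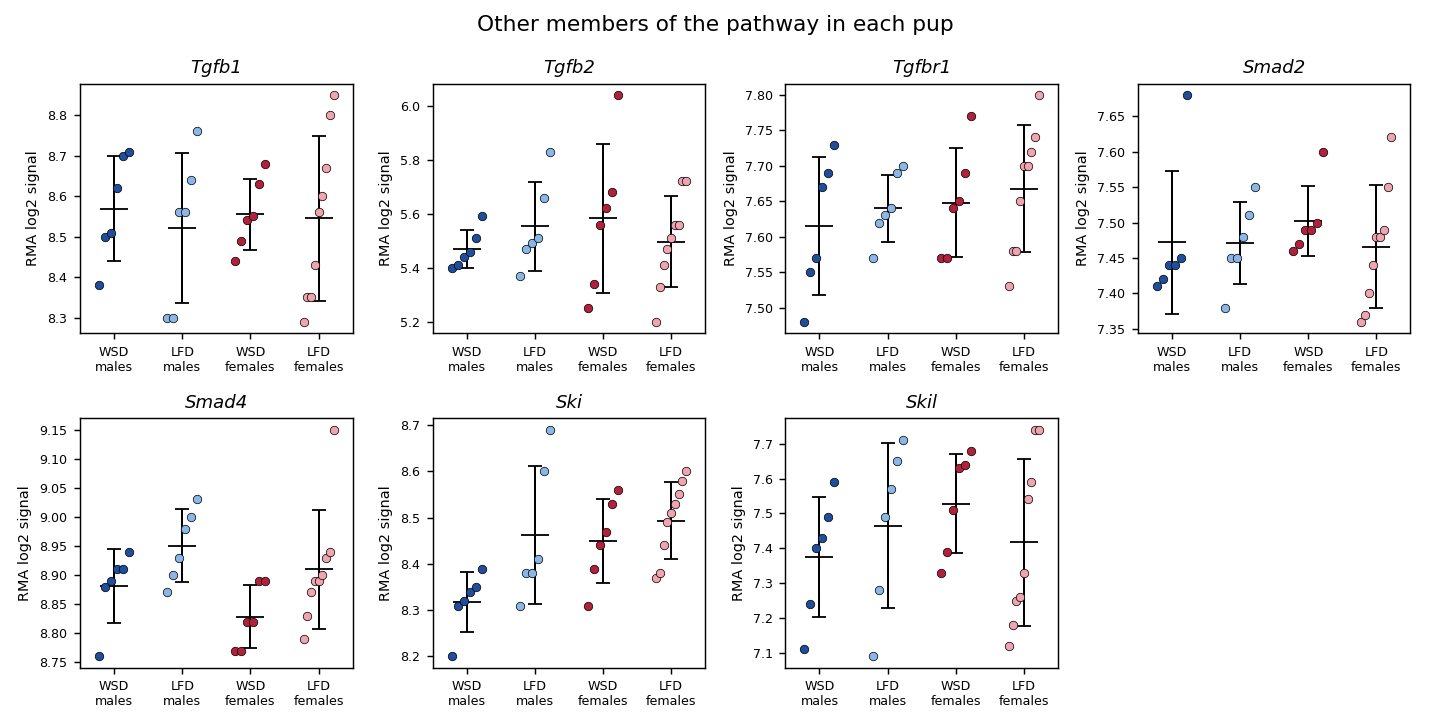
RMA log2 signal (vertical axes, each with its own range that does not start at 0) of the 7 measured members besides Smad3 in each pup, by group; horizontal marks are means and whiskers 1 SD. The groups overlap for all 7 genes in both sexes, and the pups m-WS1 in Smad2 at 7.68 and f-LF8 in Smad4 at 9.15 stand apart from their groups.

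The wider pathway was followed in 7 lists with 78 genes in all, each gene counted once, of which 69 were tested. In males 0 of the 69 were called higher and 2 lower on WSD, with a median difference of 0.016 against 0.0052 over all genes. In females 1 was called higher and 2 lower, with a median of -0.021 against 0.013. In males without m-WS1 and m-LF6, 0 were called higher and 2 lower, with a median of 0.00045 against 0.00021 over all genes. The share called was below the 5.14% of all genes in males and close to the 5.14% of all genes in females. It describes these lists only.

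Among receptors and co-receptors, 0 of 6 tested genes were called in males, where 5.14% of all genes were called. In females 2 of 6 were lower on WSD, where 1.48% of all genes were called lower. Tgfbr3 (betaglycan), the co-receptor that presents TGF-beta ligands to the type II receptor, was 7.60 at the lowest, 7.71 at the median and 7.79 at the highest in WSD females. In LFD females it was 7.76 at the lowest, 7.94 at the median and 8.08 at the highest, and only f-LF9 lay within the range of the WSD females. Tgfbr3 fell by 0.23 in females (SE 0.046, 95% interval -0.33 to -0.14, adjusted p = 0.0254). It was the 1 gene of the 7 pathway lists with an adjusted p under 0.05 in either sex. In males the difference was -0.10 (SE 0.051, adjusted p = 0.391), with 7.77 ± 0.049 on WSD and 7.87 ± 0.076 on LFD (SD, n = 6 each). The responses of Tgfbr3 in males and in females differed by 0.13 (SE 0.069, adjusted p = 0.544), so that a difference between the sexes was not shown.

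Acvr2b, a type II receptor for activins, was 4.79 at the lowest, 4.89 at the median and 5.03 at the highest in WSD females, and 4.92, 5.04 and 5.19 in LFD females. Acvr2b reached at most 5.22 in any pup, below the median signal of every array (5.34 at the lowest). It fell by 0.17 in females (SE 0.059, adjusted p = 0.173) and was 0.088 higher in WSD males without being called (SE 0.064, adjusted p = 0.607). The 2 responses differed by 0.26 (SE 0.087, adjusted p = 0.395), which passed p 0.01. On WSD, Acvr2b was higher in males than in females by 0.18 (SE 0.064, adjusted p = 0.303), which also passed p 0.01. The responses differed by 0.27 without m-WS1 and m-LF6 and still passed, whereas the difference of 0.16 between the sexes on WSD did not. With the array name number as a random block the difference in females was -0.17, and with arrays of a number averaged it was -0.16, and neither passed p 0.01. The call in females was lost when any 1 of 9 pups was left out (f-WS2 to f-WS6, f-LF1, f-LF3, f-LF4 or f-LF6), with a difference then between -0.17 and -0.15.

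Among inhibitors of the pathway, 1 of 8 tested genes was lower on WSD in males and 1 of 8 higher in females. Of all genes, 2.34% were called lower in males and 3.66% higher in females. Smurf2, a ubiquitin ligase that marks receptors and Smads for degradation, was 9.35 at the lowest, 9.41 at the median and 9.58 at the highest in WSD males. In LFD males it was 9.51 at the lowest, 9.62 at the median and 9.72 at the highest, and 4 of the 6 WSD males lay below all LFD males. Smurf2 fell by 0.16 in males (SE 0.050, adjusted p = 0.117), whereas the difference in females was 0.039 (SE 0.046, adjusted p = 0.757). The responses differed by -0.20 (SE 0.068, adjusted p = 0.395), and on WSD the males were lower than the females by a log2 difference of -0.15 (SE 0.050, adjusted p = 0.278), and both passed p 0.01. Without m-LF1 the difference in males was -0.14 and without m-WS2 it was -0.14, and neither passed p 0.01. With arrays of a number averaged it was -0.18, and with the mean of all probe sets of the gene it was -0.17. Neither of these passed p 0.01, nor did the fits within a single prefix or without number 37 or 40. With the array name number as a random block the difference in males was -0.17 and passed. Without m-WS1 and m-LF6 it was -0.17 and passed, as did the difference of -0.21 between the responses, while the difference of -0.14 between the sexes on WSD did not.

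Smad7, the inhibitory Smad that TGF-beta signalling itself induces, was 7.31 at the lowest, 7.38 at the median and 7.61 at the highest in WSD females, and 6.88, 7.17 and 7.49 in LFD females. It rose by 0.24 in females (SE 0.087, adjusted p = 0.183) and was 0.079 higher in WSD males without being called (SE 0.095, adjusted p = 0.791). The responses differed by -0.17 (SE 0.13, adjusted p = 0.702), so that a difference between the sexes was not shown. The call of Smad7 in females was close to the threshold, and it was lost when any 1 of 13 pups was left out, with a difference then between 0.21 and 0.26. These were f-WS1, f-WS2, f-WS3, f-WS6, f-LF4, f-LF5, f-LF6, f-LF8, f-LF9, m-WS2, m-WS3, m-LF1 and m-LF3, the males acting through the shared estimate of spread.

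Among the other ligands, 1 of 8 tested genes was lower on WSD in males and 0 were called in females. Of all genes, 2.34% were called lower in males and 5.14% were called in females. Inhbc, which encodes the activin beta-C chain made mainly by liver, was 10.98 at the lowest, 11.04 at the median and 11.08 at the highest in WSD males. In LFD males it was 11.03 at the lowest, 11.17 at the median and 11.34 at the highest. Inhbc fell by 0.16 in males (SE 0.053, adjusted p = 0.154) and differed by -0.021 in females (SE 0.049, adjusted p = 0.889). Without m-WS4, m-WS6, m-LF1, m-LF3 or m-LF4 the call was lost, with a difference then between -0.15 and -0.13, and the responses differed between the sexes by -0.14 (SE 0.072, adjusted p = 0.544). With the array name number as a random block the difference in males was -0.15, and with arrays of a number averaged it was -0.15, and neither passed p 0.01. It was -0.22 within prefix G073, which passed, and -0.037 within G074, which did not. Without m-WS1 and m-LF6 the difference in males was -0.19 and passed p 0.01.

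**Figure D4:**
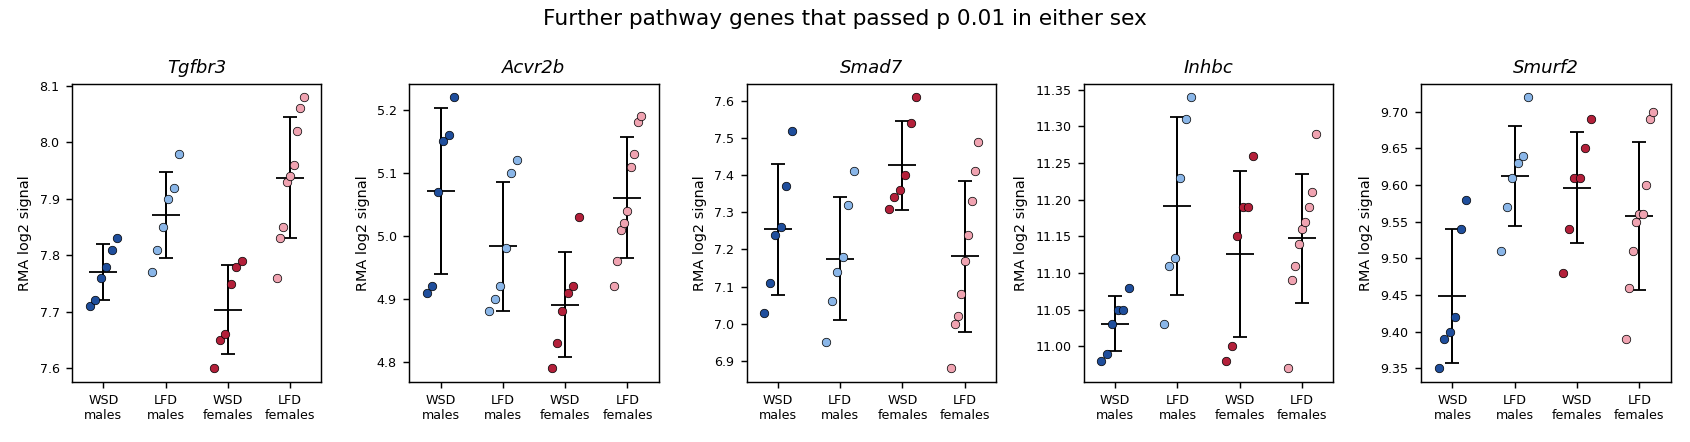
RMA log2 signal (vertical axes, each with its own range that does not start at 0) of the 5 further pathway genes with a p of at most 0.01 by maternal diet in males or females, in each pup by group; horizontal marks are means and whiskers 1 SD. Tgfbr3 and Acvr2b are lower and Smad7 higher in WSD than in LFD females, and Inhbc and Smurf2 are lower in WSD than in LFD males.

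The remaining lists held no gene called by maternal diet within either sex apart from Smad7, where 5.14% of all genes were called in each sex. Between the sexes on WSD, 1 of 26 TGF-beta target genes was called lower in males, where 3.25% of all genes were called. Without m-WS1 and m-LF6, the response to diet differed between the sexes at p 0.01 for Ltbp4 (by 0.31) and for Usp15. Of 9 genes that store or activate latent ligand, 0 were called by limma in either sex, with 1 at an unadjusted p under 0.05 in males and 0 in females. The gene with the smallest p was Ltbp4, a latent TGF-beta binding protein, with a difference of 0.17 in males (SE 0.075, adjusted p = 0.316) and -0.10 in females (SE 0.069, adjusted p = 0.532). Of 13 anchors, cofactors and modifiers of Smads, 0 were called, with 0 at an unadjusted p under 0.05 in males and 3 in females. Ppm1a, a phosphatase reported to act on Smad2 and Smad3, had the smallest p, with a difference of 0.12 in females (SE 0.045, adjusted p = 0.208) and 0.071 in males (SE 0.050, adjusted p = 0.577). Of the 3 Smads of the related bone morphogenetic protein arm, 0 were called, with 0 at an unadjusted p under 0.05 in males and 1 in females, Smad1, at -0.11 (SE 0.049, adjusted p = 0.303).

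The list of known TGF-beta target genes, such as those for collagens and Ccn2, held no gene that was called in males. Of its 26 tested genes, 0 were called by limma in males and 2 had an unadjusted p under 0.05, with a median difference of 0.065 against 0.0052 over all genes and a range of -0.52 to 0.29. With m-WS1 and m-LF6 left out, 0 were called by limma, 4 had an unadjusted p under 0.05, and the median was 0.043. In females 1 of the 26 (Smad7) was called, where 5.14% of all genes were called, and 2 had an unadjusted p under 0.05. The median in females was 0.0026 against 0.013 over all genes, with a range of -0.27 to 0.24.

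Markers of liver cell types were compared beside these results, because stellate cells, endothelium, platelets and leukocytes all carry pathway genes. The mean log2 signal of 5 hepatocyte markers lay between 12.74 and 12.88 in WSD males and between 12.63 and 12.87 in LFD males, with 0 of the 5 called by limma in either sex and 0 at an unadjusted p under 0.05. Over all genes in males, 2.34% were called lower and 2.79% higher on WSD. In males, 2 of 12 stellate cell and fibroblast markers (Lrat at -0.24 and Reln at -0.22) were lower on WSD. So were 2 of 9 endothelial markers (Clec4g at -0.38 and Vwf at -0.54) and 1 of 8 Kupffer cell markers (Cd163 at -0.59). Other endothelial markers were positive, Lyve1 at 0.18, Oit3 at 0.072, Cdh5 at 0.023 and Pecam1 at 0.0062. Stab2 at -0.077, Kdr at -0.037 and Fcgr2b at -0.023 were negative. None of these was called, and the median of the endothelial list was -0.023. The stellate list had no single direction: of its 6 markers with an unadjusted p under 0.05, 3 had negative differences (Lrat, Reln and Hgf at -0.22) and 3 positive ones (Vim at 0.23, Ngfr at 0.23 and Pdgfrb at 0.22), with a median of -0.065 over the list. Of 5 cholangiocyte markers, 1 (Sox9 at 0.43) was higher on WSD. The other 4 had negative differences, Krt19 at -0.72, Krt7 at -0.27, Cldn7 at -0.27 and Epcam at -0.17, none of them called. Krt19, Krt7 and Cldn7 had an unadjusted p under 0.05, and the median of the list was -0.27. Of 8 neutrophil and myeloid precursor markers 3 were higher (S100a9 at 0.82, Ltf at 0.73 and Cxcr2 at 0.39). Of 6 B and T lymphocyte markers 3 were higher, all of B cells (Igll1 at 1.14, Ebf1 at 0.89 and Cd79a at 0.84). Among all these markers in males, only Vwf (limma adjusted p = 0.0374) and Igll1 (limma adjusted p = 0.0419) had an adjusted p under 0.05. The B cell marker Cd79b was at 0.56, and the T cell markers Cd3e and Cd3g were at -0.0056 and -0.15, none of them called. In females, none of these lists held a called marker. After m-WS1 and m-LF6 were left out, the same stellate, endothelial, Kupffer and cholangiocyte markers were called in males, with a median of -0.12 over the stellate list. Ltf was then no longer called, and Cd79b at 0.67 and the erythroid marker Tfrc at -0.22 were. The erythroid markers Klf1 at 0.23 and Epor at 0.045 were positive and not called, and the median of that list was -0.21.

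The mean signals of these marker lists overlapped between WSD and LFD males. The stellate list lay between 8.22 and 8.42 in WSD males and between 8.28 and 8.44 in LFD males. The neutrophil list lay between 5.98 and 6.66 in WSD males (median 6.54) and between 5.26 and 6.71 in LFD males (median 5.52). The lymphocyte list lay between 6.37 and 6.87 in WSD males (median 6.60) and between 5.77 and 6.79 in LFD males (median 5.98). Differences of single neutrophil markers in males ran from 0.21 to 0.96, with a median of 0.67. Those of lymphocyte markers ran from -0.15 to 1.14, with a median of 0.70. The endothelial list lay between 8.92 and 9.26 in WSD males and between 8.99 and 9.37 in LFD males, and the Kupffer list had a median of 8.44 in WSD males and 8.48 in LFD males, with the highest pup on LFD and the lowest on WSD. The cholangiocyte list lay between 5.59 and 5.78 in WSD males and between 5.35 and 6.49 in LFD males. No platelet marker was called in either sex. Of 5 erythroid markers 1 (Tfrc at 0.18) was higher on WSD in females, where 3.66% of all genes were called higher. The others in females were Alas2 at 0.059, Epor at -0.021, Klf1 at -0.071 and Slc4a1 at -0.16, none of them called. No marker was under an intensity of 20 on every array. In whole liver, fewer cells of a type and less RNA per cell cannot be told apart, and the part of these cell types in the results for Smad3, Smurf2 and Inhbc was not tested.

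Among the 8 members, pups of a group varied together for some pairs. Of 28 pairs, correlated as deviations from the group means over 27 pups, 3 had an adjusted permutation p under 0.05. The permutations did not allow for the group means that had been subtracted, so the permutation p-values are too small. Whether each of the 3 pairs would pass with that allowance was not tested. Skil and Tgfb1 ran against each other with r = -0.62 (permutation p = 0.00069, adjusted p = 0.0165) and rho = -0.58 (permutation p = 0.002), and r was -0.51 without the 2 pups farthest on the first gene. For this pair r was -0.72 within prefix G073 and -0.49 within G074. Smad4 and Tgfb1 ran together with r = 0.57 (permutation p = 0.00118, adjusted p = 0.0165) and rho = 0.48 (permutation p = 0.0114), with r = 0.53 without the 2 farthest pups. Skil and Smad4 gave r = -0.52 (permutation p = 0.00409, adjusted p = 0.0382) and rho = -0.58 (permutation p = 0.00175), with r = -0.49 without the 2 farthest pups.

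These 3 relations were weaker among pups of the same array name number. The r within numbers was -0.32 for Skil and Tgfb1, 0.28 for Smad4 and Tgfb1 and -0.17 for Skil and Smad4, so that they rest in part on differences between numbers. Pups of 1 number may not be independent, and the permutations take them as such. For Smad3 and Tgfb2, r was -0.51 (permutation p = 0.00731, adjusted p = 0.0512) and rho was -0.51 (permutation p = 0.00701), and it was -0.34 without the 2 farthest pups and -0.61 within numbers. No pair that holds Smad3 passed the adjusted threshold.

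Across all 27 arrays, the genes most like Smad3 in signal were not of the pathway lists. The highest Pearson correlations, given as a description over arrays that share diets and may share dams, were with Lyst (0.77), a regulator of lysosomal traffic, Usf1 (0.74), an E-box transcription factor, Sun1 (0.73), a nuclear envelope protein, S100pbp (0.73) and Tef (0.72), a transcription factor of the circadian output. Their differences by diet in males were 0.18 for Lyst, 0.36 for Usf1, 0.24 for Sun1, 0.18 for S100pbp and 0.22 for Tef, and those in females lay between -0.063 for S100pbp and 0.050 for Sun1. The lowest correlations were with Tacc2 (-0.74), Usp6nl (-0.71) and Ppip5k2 (-0.70). With Smad3, the other members had correlations between -0.47 for Tgfb2 and 0.053 for Tgfbr1.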

How the data were processed

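The deposited values are log2 signals that the authors computed with RMA, which corrects background, sets all arrays to 1 distribution and summarizes probes; its version is not given in the sources used here. The table held 35556 probe sets, of which 21218 named a single gene. Genes with a log2 signal of at least that of an intensity of 20 on at least 4 arrays were kept, with no filter on the interquartile range. limma 3.58.1 (R 4.3.3) was fitted with 4 group means and an intensity trend on 13279 genes, with Benjamini-Hochberg adjustment. The fit was tried on simulated data with independent pups, which does not cover effects of the array name number. Pairs of members were tested with 100000 permutations, 2-sided, without allowance for the subtracted group means. Plots were made in Python 3.11.15 (matplotlib 3.10.9).

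The members, lists and tests were chosen with earlier results of these data known. Named were all members, the genes of each pathway list called in either sex or, where none was called, the gene with the smallest p, markers on which a result turns, and the 5 highest and 3 lowest correlations with Smad3. The 7 pathway lists and 9 marker lists were described by counts and medians. Pup numbers in the labels do not pair pups: over 36 same-numbered pairs of different groups the median correlation of deviations was 0.024 (-0.25 to 0.37), against -0.011 over 234 other pairs. The alternatives were other filters, normalizations and priors, each sex fitted alone, array weights, parts of the array names as blocks or subsets, the pup number as a block, the mean of all probe sets of a gene, and leaving out each number, each pup, or m-WS1 with m-LF6; the last was extended to the lists and markers after seeing the data. The number of pups limits the precision. Tgfbr2 and the promoters of some members were not analysed here.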

Additional observations from a re-analysis of the deposited data

Results flagged for a closer look

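Of 64 groups of pups examined for a single pup far from the rest, 6 held one, and chance gives about 1 in 20. In Smad2, m-WS1 was at 7.68 where the other WSD males lay between 7.41 and 7.45, and f-WS3 was at 7.60 where the other WSD females lay between 7.46 and 7.50. In Smad4, m-WS6 was at 8.76 where the other WSD males lay between 8.88 and 8.94, and f-LF8 was at 9.15 where the other LFD females lay between 8.79 and 8.94. In Ppm1a, m-WS2 was at 9.40 where the other WSD males lay between 9.57 and 9.63, and m-LF1 was at 9.67 where the other LFD males lay between 9.40 and 9.50.

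The response to maternal diet differed between the sexes at p 0.01 for Acvr2b by 0.26 (adjusted p = 0.395) and for Smurf2 by -0.20 (adjusted p = 0.395), males minus females on the log2 scale, and neither passed an adjusted p of 0.05. For Smad3 the responses differed by 0.32, which was not tested because the gene had been chosen from these pups.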

How the results depend on the processing

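Over 48 alternatives the Smad3 difference in males lay between 0.24 and 0.33, and it was 0.29 (SE 0.064) with the replicate block, in which pup numbers serve as pairs. The count of other members called in males was 1 (Ski) in place of 0 with arrays centred on their median, without number 50 and without m-WS1 and m-LF6, and it was 0 to 1 when 1 pup was left out. For males against females on WSD, no member besides Smad3 was called under any alternative. Smad3 is left out there and has no test, since its male values had selected it. The counts in females, for the sexes on LFD and for the difference between responses remained 0. The replicate block ended the call of Smad7 in females (0.19, above p 0.01) and changed no other call given in males or females. Other calls lost were those of Inhbc under 12 alternatives, Acvr2b under 17, Smad7 under 24, Smurf2 under 8 and Tgfbr3 under 1, the fit within G074.

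Uncalled differences near 0 changed sign, and the cause was not tested. With arrays centred, Smad2 in males was -0.013 and Tgfb1 in females -0.012, and with repeated quantile normalization they were -0.011 and -0.014. Tgfb1 in females was -0.0012 with arrays of a number averaged. Without number 37, Tgfb1 in females was -0.084 and Tgfb2 -0.0067, and without number 48 Tgfb1 was -0.018. Without number 40, Smad2 was -0.037, Tgfb1 -0.018 and Tgfbr1 0.026 in males, and Tgfbr1 was 0.0015 in females. Smad2 in males was -0.018 without number 49. Within G074, Smad2 was -0.059 and Tgfbr1 0.027 in males, and Smad3 was 0.15, Tgfb1 -0.075, Tgfb2 -0.18 and Tgfbr1 0.024 in females. Without m-WS1 and m-LF6, Smad2 was -0.043 and Tgfbr1 0.0025 in males. Leaving out 1 pup gave -0.040 to 0.017 for Smad2 in males, -0.022 to 0.049 for Tgfb1 in females, -0.0051 to 0.15 for Tgfb2 in females and -0.047 to 0.0034 for Tgfbr1 in males.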
